A study of Mus musculus with 6 samples.

Results

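Metallothioneins are small cysteine-rich proteins that hold zinc and copper, and the genes described here are 3 of them (Mt1, Mt2 and Mt3), the regulator Mtf1 and 5 transporters that move zinc and related metals (Slc30a1, Slc30a3, Slc30a10, Slc39a10 and Slc39a14). These 9 genes, of 60354 features listed for each mouse, were matched to the count files by Ensembl identifier. They were chosen by their CPM (the reads of a gene per 1000000 of the TMM-adjusted library size) in the same 6 brains, PLDP against control. The differences of these 9 genes between the diets are therefore given as a description, and where a count past a threshold is given it is no evidence for them. Whole-brain RNA was sequenced from 3 mice of the control group, numbered 2, 5 and 10, and 3 of the PLDP group, numbered 17, 22 and 26, each brain from its own animal. All were male C57BL/6NCrSlc mice with no genetic modification named in the labels, 16 weeks old when the diets began. The PLDP mice received a modified AIN-93M diet containing 20% PLDP, a porcine liver product digested with protease, for 16 weeks. The control mice received a modified AIN-93M diet of matched calories without PLDP over the same time. Both groups then passed through a battery of behavioral tests, forced swimming included, during which the PLDP diet was withheld, and RNA was extracted after the last test. The study lists iron, zinc, copper and manganese among the minerals of PLDP, measured in another lot, and both diets carried the same mineral mix.

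When free zinc rises in a cell, the zinc finger protein MTF1 binds short DNA elements called metal response elements and switches on the metallothionein genes and Slc30a1. Mt1 and Mt2 are also known to respond to glucocorticoids and to oxidative stress, and in the brain they are expressed mainly by astrocytes, with a share in endothelial and ependymal cells. Mt3 is largely a brain metallothionein and is known to respond weakly to metals. The Slc30a (ZnT) transporters lower zinc in the cytosol by moving it out of the cell or into vesicles, whereas the Slc39a (ZIP) transporters raise it. Slc30a3 loads zinc into synaptic vesicles of forebrain glutamatergic neurons. Slc30a10 exports and Slc39a14 imports manganese, and Slc39a10 is a zinc importer known to be held down by MTF1.

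Mt1, Mt2 and Mt3 lie in one cluster on the plus strand of chromosome 8 (GRCm38), with 5513 bases between Mt2 and Mt1 and 18517 between Mt3 and Mt2. Mt1 spans chr8:94179082-94180327, Mt2 spans chr8:94172664-94173568 and Mt3 spans chr8:94152607-94154146 in GENCODE M21. Promoter windows, from 250 bases before to 50 bases after the transcription start, were taken from RefSeq (GRCm38.p6), where 8 of the 9 genes had 10 windows between them and Slc39a14 was not matched. The core of the metal response element, written as TGCACNC or TGCGCNC, was searched on both strands. The 3 metallothionein promoters are shown because these genes share a cluster, and those of Slc30a1 and Slc30a10 because these transporter genes outside the cluster had more than 1 match. Each stretch runs 5′ to 3′ on the plus strand from 250 bases before to 30 bases after the start, with the complete cores in capitals (a core on the minus strand appears as its complement).
Mt2, chr8:94172368-94172647: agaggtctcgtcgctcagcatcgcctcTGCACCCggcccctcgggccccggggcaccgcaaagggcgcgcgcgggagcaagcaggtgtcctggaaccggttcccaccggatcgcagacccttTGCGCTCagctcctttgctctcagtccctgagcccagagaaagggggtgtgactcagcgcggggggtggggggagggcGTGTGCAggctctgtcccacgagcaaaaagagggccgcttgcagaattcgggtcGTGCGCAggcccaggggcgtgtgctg
Mt1, chr8:94178839-94179118: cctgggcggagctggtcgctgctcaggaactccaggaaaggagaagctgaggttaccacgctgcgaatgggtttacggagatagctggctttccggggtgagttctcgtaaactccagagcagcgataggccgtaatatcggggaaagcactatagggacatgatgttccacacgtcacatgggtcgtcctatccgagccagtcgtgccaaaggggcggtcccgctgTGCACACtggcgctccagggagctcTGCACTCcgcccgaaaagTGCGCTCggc
Mt3, chr8:94152357-94152636: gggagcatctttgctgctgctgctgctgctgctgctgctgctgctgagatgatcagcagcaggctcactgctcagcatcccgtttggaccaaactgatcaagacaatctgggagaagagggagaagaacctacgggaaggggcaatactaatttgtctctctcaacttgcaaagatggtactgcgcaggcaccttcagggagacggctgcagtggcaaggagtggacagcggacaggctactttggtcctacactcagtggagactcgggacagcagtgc
Slc30a1, chr1:191906531-191906810: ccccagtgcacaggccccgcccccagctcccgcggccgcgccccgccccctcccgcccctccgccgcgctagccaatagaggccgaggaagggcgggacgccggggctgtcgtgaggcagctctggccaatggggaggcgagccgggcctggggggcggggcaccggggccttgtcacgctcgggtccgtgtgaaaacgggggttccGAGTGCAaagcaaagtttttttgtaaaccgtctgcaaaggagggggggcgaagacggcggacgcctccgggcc
Slc30a10, chr1:185454598-185454877: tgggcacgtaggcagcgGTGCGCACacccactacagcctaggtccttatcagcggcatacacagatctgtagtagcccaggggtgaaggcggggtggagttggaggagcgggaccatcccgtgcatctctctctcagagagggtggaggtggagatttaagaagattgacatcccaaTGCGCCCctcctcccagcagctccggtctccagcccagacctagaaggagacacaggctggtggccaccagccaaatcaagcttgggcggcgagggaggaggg

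The Mt2 window held 4 cores, beginning at -223, -128, -50 and 5 relative to the start, the first transcribed base being 1. The Mt1 window held 3 cores, at -23, 3 and 21. The Mt3 window held 1, at 28, which runs past the stretch printed above. In Slc30a10 there were 3 matches at 2 places, since those at -233 and -232 overlap on opposite strands and the other lies at -73. Slc30a1 had 2 (at -43 and 31, the second past the stretch printed above) and Slc30a3 had 1 (at -77) in 1 of its 2 windows. None was found in the window of Mtf1 or in the 2 windows of Slc39a10, neither of which lies at the 5′ end of the GENCODE gene. Of all 32851 mouse promoter windows of this length, 25.7% held at least 1 core, 7.11% at least 2, 1.97% at least 3 and 0.517% at least 4. The core of the antioxidant response element, TGACNNNGC, occurred once in Mt2 (at -79) and once in Slc30a1 (at -82), in neither case overlapping a metal response core, and in 12.4% of all windows. Mt1 has 3 annotated transcripts, and cores outside its window were not counted, so a core missing from the window can still lie near the gene. These are matches of letters only, and binding was not measured.

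Of the 9 genes, Mt2, Mt1 and Slc30a3 passed the threshold toward higher levels in the PLDP mice, an unadjusted p under 0.05 in the quasi-likelihood test of edgeR, and none passed it toward lower levels. Over all 18580 features tested, 4.91% passed as higher and 3.69% as lower. The fitted log2 fold change was above 0 for 8 of the 9 genes, with a median of 0.08 among them and 0.00 over all features tested. Every PLDP mouse exceeded every control mouse for 2 of the genes (Mt2 and Slc30a3), against 7.29% of all features tested. Every PLDP mouse was below every control mouse for 0 of them, against 6.90%. Because the genes were picked on this very contrast, nothing is read from these counts. In whole-brain RNA, a change in the number of cells of a type and a change in RNA per cell cannot be told apart.

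**Figure D1:**
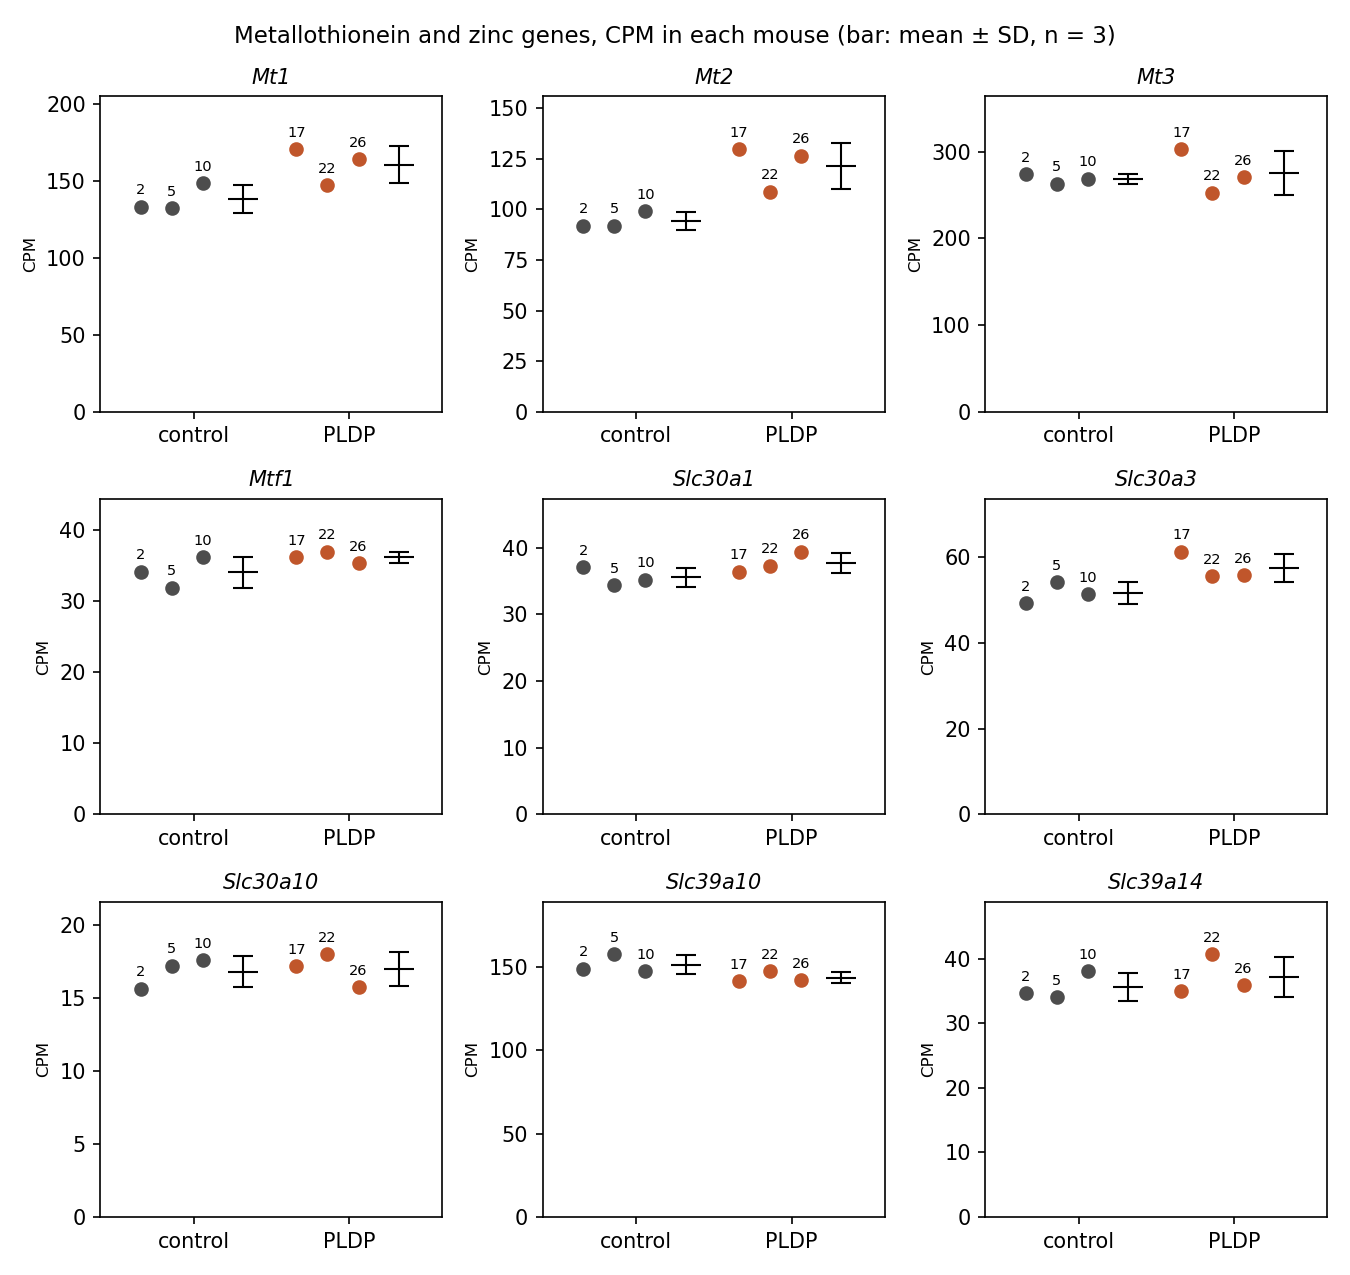
CPM of the 9 genes in each mouse (y axis, from 0), control in gray and PLDP in orange, with mouse numbers above the points and the mean ± SD (n = 3) beside them. Mt2 and Slc30a3 have all 3 PLDP mice above all 3 control mice, and the groups overlap for the other 7 genes.

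Mt2 encodes one of the widely expressed, metal-inducible metallothioneins. It stood at 91.7, 91.7 and 99.0 CPM in control mice 2, 5 and 10 and at 129.7, 108.5 and 126.3 CPM in PLDP mice 17, 22 and 26. The groups did not overlap, and mouse 22 was the lowest of the PLDP mice. The means were 94.2 ± 4.21 CPM on the control diet and 121.5 ± 11.3 on the PLDP diet (SD, n = 3 each), a fitted difference of 28.9% (log2 fold change 0.37, standard error 0.06).

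Mt1, its neighbor and the other inducible metallothionein, had 133, 132 and 148 CPM on the control diet and 171, 147 and 164 CPM on the PLDP diet, in the same order of mice. PLDP mouse 22 fell just under control mouse 10, so the groups overlapped. The fitted difference was 16.4% (log2 fold change 0.22, standard error 0.06). The alternatives tried, leaving out each mouse among them, left the log2 fold change of Mt1 between 0.17 and 0.28 and that of Mt2 between 0.32 and 0.44.

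Mt3, the brain metallothionein, had 274, 263 and 269 CPM on the control diet and 303, 253 and 270 CPM on the PLDP diet. The PLDP group held both the highest and the lowest mouse, and its SD of 25.4 CPM compared with 5.49 in the control group. The log2 fold change was 0.04 with a standard error of 0.05, and it was -0.04 without PLDP mouse 17. Among the PLDP mice, all 3 metallothioneins were highest in mouse 17 and lowest in mouse 22. The summed CPM of the 3 genes was 499, 487 and 516 on the control diet and 603, 509 and 561 on the PLDP diet, with mouse 22 below control mouse 10.

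Ratios within a mouse do not depend on the scaling between libraries. Mt1 CPM divided by Mt2 CPM was 1.45, 1.44 and 1.5 on the control diet and 1.32, 1.35 and 1.30 on the PLDP diet, so that every PLDP mouse was lower (mean 1.46 ± 0.03 against 1.32 ± 0.03, SD, n = 3 each). In relation to its neighbor, Mt2 thus made up more of the pair in the PLDP mice. Mt2 CPM divided by Mt3 CPM was 0.335, 0.349 and 0.369 on the control diet and 0.428, 0.429 and 0.467 on the PLDP diet, again without overlap. This ratio placed mouse 22 beside mouse 17, although mouse 22 had less of both transcripts. Mt1 CPM divided by Mt3 CPM was 0.486, 0.503 and 0.553 against 0.563, 0.581 and 0.607, where control mouse 10 and PLDP mouse 17 were close. These ratios reuse the CPM of genes chosen on this same contrast, so their separation is a description and no evidence of unequal change. Nor do they show that any of the 3 genes was constant.

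**Figure D2:**
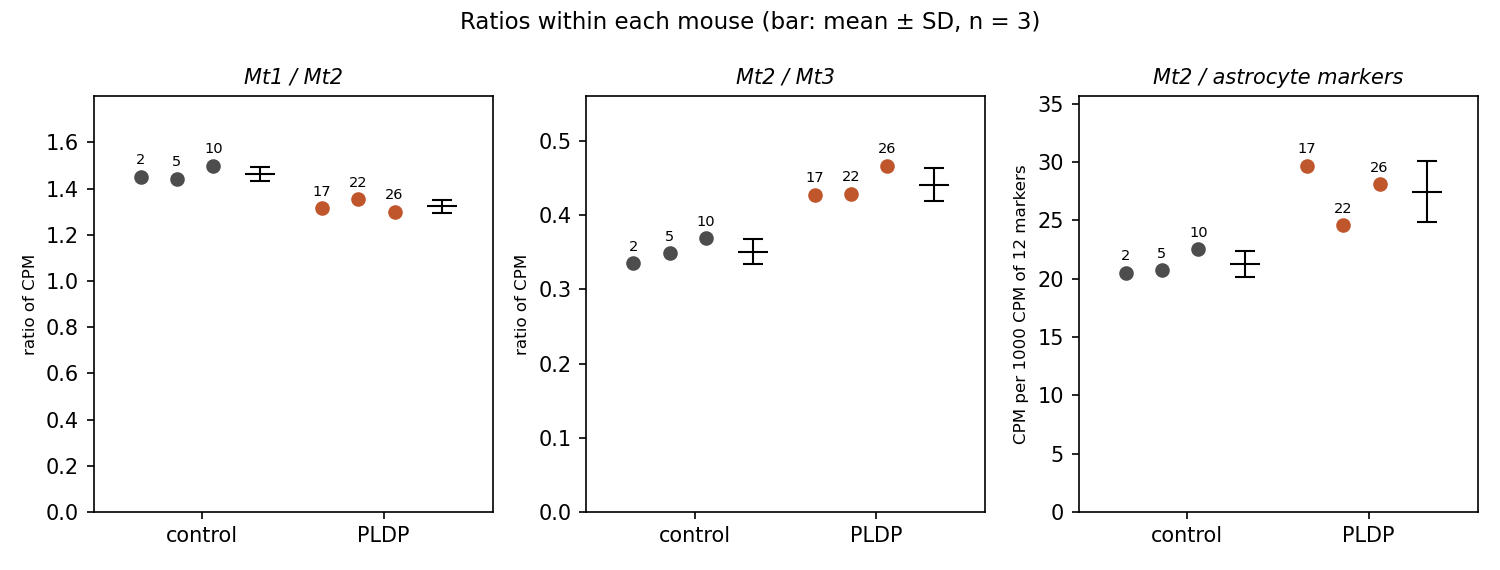
Ratios in each mouse: Mt1 CPM divided by Mt2 CPM, Mt2 CPM divided by Mt3 CPM, and Mt2 CPM per 1000 CPM of 12 summed astrocyte markers (y axes, from 0), with mouse numbers above the points and mean ± SD (n = 3) beside them. The PLDP mice lie below the control mice for Mt1 over Mt2 (1.30 to 1.35 against 1.44 to 1.5) and above them in the other 2 panels.

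Mtf1 (chr4:124802104-124849800), the zinc-sensing transcription factor, had 34.2, 31.8 and 36.2 CPM on the control diet and 36.2, 37.0 and 35.3 CPM on the PLDP diet. The groups overlapped, and the log2 fold change was 0.09 with a standard error of 0.06 (0.04 without control mouse 5). Slc30a1 (chr1:191906767-191913247), the zinc exporter of the plasma membrane, had 37.1, 34.4 and 35.2 CPM on the control diet and 36.4, 37.3 and 39.4 CPM on the PLDP diet. Its log2 fold change was 0.08 with a standard error of 0.06 (0.05 without PLDP mouse 26), and control mouse 2 lay within the range of the PLDP mice. For neither gene did the groups separate, in contrast to Mt2.

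Slc30a3 (chr5:31086106-31108237, minus strand), the vesicular zinc transporter of synapses, had 49.2, 54.2 and 51.4 CPM on the control diet and 61.3, 55.5 and 55.7 CPM on the PLDP diet. The groups did not overlap, but control mouse 5 and PLDP mouse 22 were close. The fitted difference was 11.4% (log2 fold change 0.16, standard error 0.06). It fell to 0.12 without control mouse 2 and to 0.11 without PLDP mouse 17, and in these 2 of the 12 alternatives it no longer passed the threshold. Slc30a10 (chr1:185454848-185468762), a manganese exporter, had the lowest counts of the 9 genes, 15.6, 17.2 and 17.6 CPM on the control diet and 17.2, 18 and 15.7 CPM on the PLDP diet. The values of the groups were interleaved, and the log2 fold change of 0.02 (standard error 0.08) turned to -0.03 without control mouse 2 and likewise without PLDP mouse 22.

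Of the importers, Slc39a10 (chr1:46807544-46892852, minus strand) was the one gene of the 9 with a fitted value below 0. It had 149, 158 and 148 CPM on the control diet and 142, 148 and 142 CPM on the PLDP diet. The highest PLDP mouse, 22, exceeded the lowest control mouse, 10, by less than 0.1 CPM, so the groups only just overlapped. The log2 fold change was -0.08 with a standard error of 0.04, and -0.05 without control mouse 5. Slc39a14 (chr14:70303469-70351425, minus strand), which carries zinc, iron and manganese into cells, had 34.6, 34 and 38.1 CPM on the control diet and 35.0, 40.7 and 35.9 CPM on the PLDP diet. Mouse 22 was the highest of the 6 here, in contrast to its low place for the metallothioneins. The log2 fold change was 0.07 with a standard error of 0.07, and -0.01 without mouse 22.

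Levels of different genes were compared per kilobase of annotated exon, over all 6 mice. On this scale Mt3 was the highest with a mean of 255 CPM per kilobase (237 to 284 in single mice), followed by Mt2 with 183 (156 to 221) and Mt1 with 120 (106 to 137). Slc39a10 with 24.2 and Slc30a3 with 19.2 came next, then Slc30a1 with 6.99. Mtf1 with 3.94 (3.58 to 4.15) and Slc39a14 with 3.45 (3.22 to 3.86) were neighbors whose ranges overlapped. Slc30a10 was the lowest with 2.89 (2.67 to 3.08), and no other neighbors in this order overlapped. Per base of exon, the 3 metallothioneins were thus the most abundant transcripts of the group, whereas in CPM Slc39a10 was as high as Mt1. The order rests on the union of annotated exons, which overstates the length of genes with unused exons. For Mt1 this union was 1246 bases, its whole span, against 588 for Mt2. In CPM Mt1 exceeded Mt2 in every mouse, so the order of this pair turns on these lengths.

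The variation left within the diets also differed among the 9 genes. Pearson correlations with Mt2 of log2 CPM, after subtracting each diet's mean, were computed over the 6 mice for 10921 genes with a mean of at least 10 CPM. Mt1 had an r of 0.96 and ranked 44 of them, Mt3 had 0.77 and ranked 609, and Slc30a3 had 0.43. Mtf1 and Slc30a1 were near 0 (0.09 and -0.02). Slc30a10, Slc39a14 and Slc39a10 had -0.27, -0.48 and -0.70. The genes most like Mt2 by this measure were Snhg20, Ndufa5, Neurl1a, Clpb and Matn4, with r between 0.990 and 0.995. These values describe 6 mice, in which each gene shares its library and depth with Mt2, and no p is given for them.

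A further list of 22 zinc and metallothionein genes held other members of the metallothionein, Slc30a and Slc39a families, with Tmem163 and Selenoh added. Of these, 16 had enough counts to be tested. None of the 16 passed the threshold as higher, with edgeR or with DESeq2, and 3 passed it as lower with edgeR, against 4.91% and 3.69% of all features. None passed an adjusted p of 0.05. The median log2 fold change was -0.06, and 14 of the 16 were below 0. Their summed CPM was 669 to 687 on the control diet and 640 to 647 on the PLDP diet, without overlap, a sum that includes abundant genes that did not pass the threshold.

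**Figure D3:**
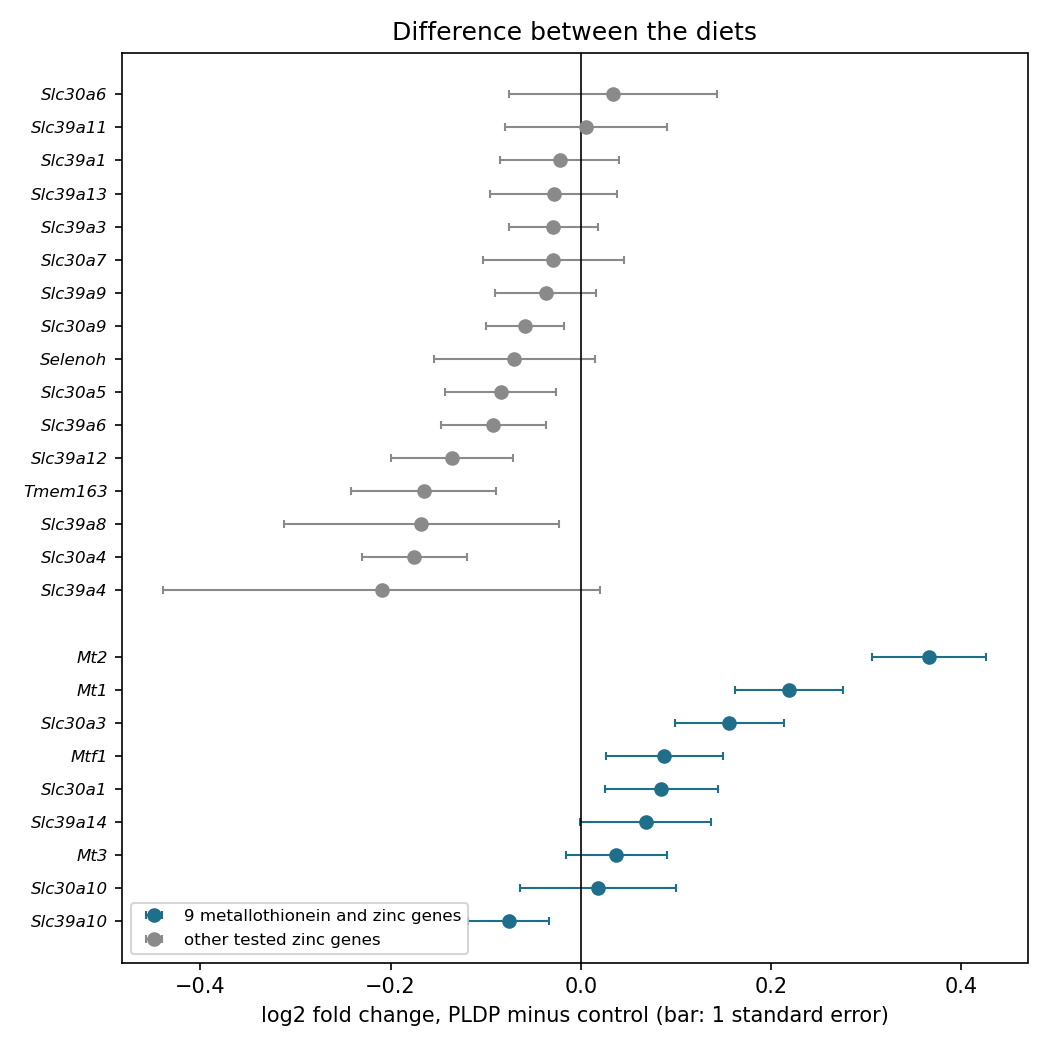
Fitted log2 fold changes, PLDP minus control (x axis; bars, 1 standard error), of the 9 metallothionein and zinc genes (blue, below) and the 16 other tested zinc genes (gray, above). Mt2 is highest at 0.37, Slc39a10 is the only one of the 9 below 0, and 14 of the 16 other genes lie below 0.

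Slc30a4, an exporter that fills vesicles with zinc, was lower, with 49.4, 56.0 and 53.7 CPM on the PLDP diet against 59.5, 59.0 and 61.3 CPM on the control diet. Its log2 fold change was -0.17 (standard error 0.05, edgeR adjusted p = 0.349). It was the one gene of the 16 tested whose groups did not overlap. Of all features tested, 6.90% had every PLDP mouse below every control mouse, so nothing is read from this count. Tmem163, a zinc transporter of synaptic vesicles, had 32.5, 29.0 and 30.6 CPM against 29.9, 27.8 and 24.2 (log2 fold change -0.17, adjusted p = 0.566, and -0.09 without PLDP mouse 26). Slc39a12, an importer abundant in brain, had 46.7, 48.2 and 44.7 CPM against 38.5, 45.8 and 42.6 (log2 fold change -0.14, adjusted p = 0.579, and -0.07 without PLDP mouse 17). The last 2 overlapped between the groups, and of the 3 genes called lower, only 1 was called with DESeq2, without control mouse 2 or without PLDP mouse 26. Slc39a3, a plasma membrane importer and the most abundant of the list per kilobase, had 80.8, 84.1 and 79.8 CPM against 82.3, 79.0 and 78.5. Slc30a9, which moves zinc out of mitochondria, had 192, 183 and 178 CPM against 179, 175 and 178. Neither passed the threshold (log2 fold changes -0.03 and -0.06, adjusted p = 0.913 and 0.739, and -0.01 without control mouse 5 and -0.03 without control mouse 2).

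Of the 6 genes of the list that were not tested, Slc30a2, Slc30a8 and Slc39a5 were under 0.5 CPM in every mouse. Mt4, a metallothionein of stratified epithelia, and Slc39a2 were listed at 0 counts in every mouse. Slc39a7 also had 0 counts in every mouse, although this importer of the endoplasmic reticulum is used by nearly all cells. The annotation places a read-through gene, Gm20427, over Slc39a7 on the same strand, and Gm20427 had 12 to 20 counts per mouse. These values of 0 are therefore given as listed and not as absence.

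Other pathways that act on metallothioneins or share their metals were set beside these genes. In the copper list (12 genes, 11 tested) no gene passed the threshold, with a median log2 fold change of -0.04, and in the iron list (13 genes, 11 tested) none did either, with a median of -0.06. The oxidative stress list (10 genes, 9 tested) likewise had no gene past it, with a median of -0.06. Hmox1 of this list and Sco2 of the copper list had 0 counts in every mouse and are given as listed. Of 5 manganese genes 1 was lower, Tmem165, a Golgi protein that handles manganese (33.4 ± 0.57 against 29.2 ± 1.63 CPM, SD, n = 3 each, log2 fold change -0.19, adjusted p = 0.362 by edgeR), while the manganese transporters Slc30a10 and Slc39a14 are described above. The list of glucocorticoid-responsive genes had 4 of 13 past the threshold as higher and 1 as lower, against 4.91% and 3.69% of all features, and none at an adjusted p of 0.05. Zbtb16, a transcriptional repressor induced by glucocorticoids, had 19.5, 16.5 and 18.6 CPM on the control diet and 21, 36.3 and 36.9 CPM on the PLDP diet (log2 fold change 0.79, adjusted p = 0.0785). Cdkn1a, the cell cycle inhibitor p21, and Fkbp5, a co-chaperone of the glucocorticoid receptor, had log2 fold changes of 0.32 (adjusted p = 0.294) and 0.24 (adjusted p = 0.306). Ddit4, an inhibitor of mTOR signaling, was the lower gene, at -0.18 (adjusted p = 0.321). The part of this response in the values of Mt1 and Mt2 was not tested.

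Markers of the cells that hold these transcripts were examined next, with the same threshold, which 4.91% of all features passed as higher and 3.69% as lower. Of 12 astrocyte markers 2 were lower and none higher, and their summed CPM overlapped between the groups (4397 to 4478 in the controls, 4370 to 4499 in the PLDP mice). Mt2 per 1000 CPM of the astrocyte markers was 20.5, 20.7 and 22.5 on the control diet and 29.7, 24.6 and 28.1 on the PLDP diet, so the groups stayed apart on this scale. Mt1 on the same scale was 29.7, 29.9 and 33.8 against 39.0, 33.3 and 36.5, with overlap. Mt3 was 61.1, 59.3 and 61.1 against 69.3, 57.2 and 60.1, also with overlap. Of 10 endothelial markers 3 were higher and none lower, and their sum was 264 to 273 CPM on the control diet and 291 to 296 on the PLDP diet, without overlap. Mt2 per 1000 CPM of the endothelial markers was 348, 339 and 363 against 438, 373 and 431, where the groups did not overlap but the PLDP mean was 1.18 times the control mean, against 1.29 times per astrocyte marker. The part of endothelial RNA in the result for Mt2 was not tested. Ependymal markers (5 of 6 tested) had none past the threshold, with sums of 16.7 to 18 against 15.7 to 18.6 CPM, and Foxj1 among them was at 0 counts in every mouse.

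Slc30a3 belongs to forebrain projection neurons, whose markers were summed in the same way and are read against the same 4.91% higher and 3.69% lower of all features, as are the other lists below. Of 7 markers of cortical and hippocampal projection neurons 3 were higher and none lower, with sums of 3337 to 3435 CPM on the control diet and 3595 to 3651 on the PLDP diet, without overlap. Slc30a3 per 1000 CPM of these markers was 14.3, 15.8 and 15.4 on the control diet and 17.0, 15.2 and 15.5 on the PLDP diet, so the groups, apart in CPM, overlapped on this scale. All 8 tested markers of brainstem and spinal cord, of 10 listed, were lower in the PLDP mice, with sums of 142 to 155 CPM in the control mice, 112 in mouse 17, 75.9 in mouse 22 and 106 in mouse 26. Mouse 22, with the lowest sum of brainstem markers, was also the PLDP mouse with the least Mt1, Mt2 and Mt3. Its Mt1 over Mt2 of 1.35 was the highest of the PLDP mice (1.32 in mouse 17 and 1.30 in mouse 26). This ratio lay below that of every control mouse, the lowest of which had 1.44. Choroid plexus markers had 2 of 7 lower, and all 7 had a log2 fold change below 0 (753 to 809 against 591 to 751 CPM, just without overlap). Those of oligodendrocytes had 3 of 8 lower (5282 to 5677 against 4919 to 5542 CPM, with overlap). Microglia and meninges each had 1 of 8 markers lower, and the 5 blood markers had none past the threshold, with overlapping sums in all 3 lists. The 6 general neuronal markers analysed had none past the threshold (5727 to 5933 against 5837 to 5947 CPM), and the labelled tissue thus had its neuronal and astrocyte markers in all 6 mice. The share of these regional differences in the values of the 9 genes was not tested.

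**Figure D4:**
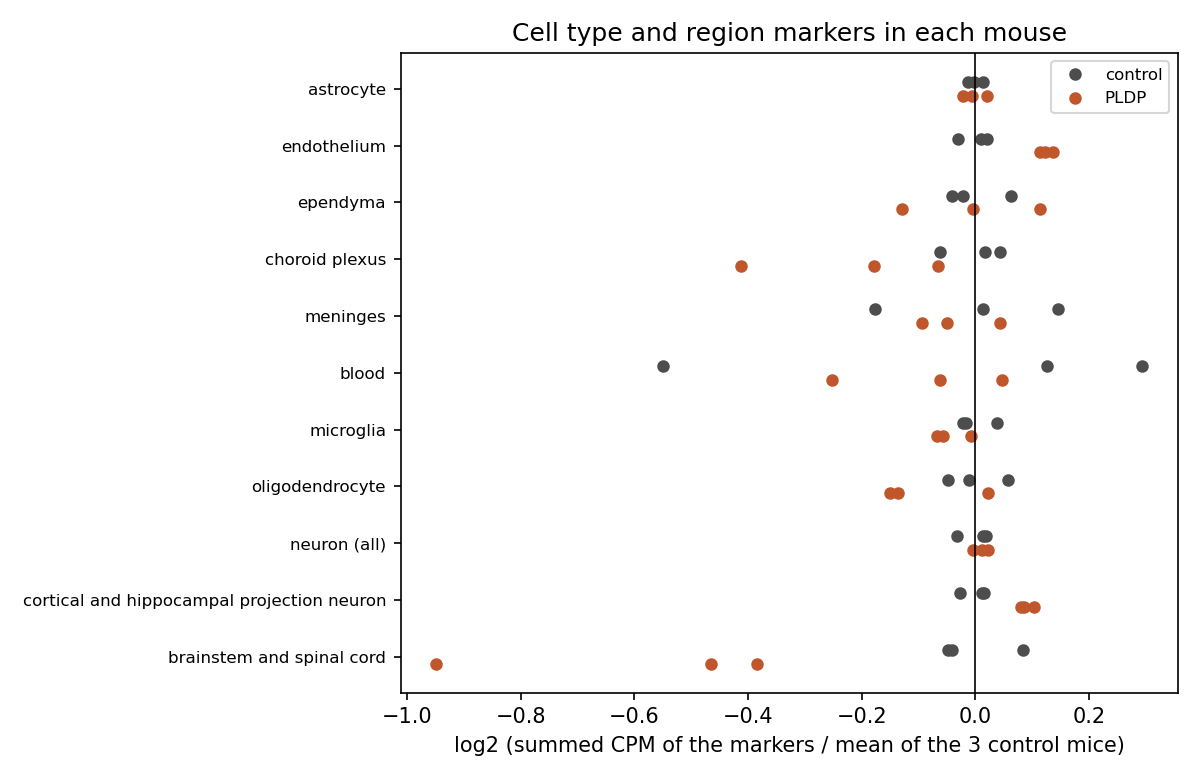
Summed CPM of each marker list in each mouse as log2 of its ratio to the mean of the 3 control mice (x axis), control in gray and PLDP in orange. The brainstem and spinal cord list is lower in all 3 PLDP mice and lowest in mouse 22. The choroid plexus list is also lower in all 3, with mouse 22 just under the lowest control mouse. The endothelial and projection neuron lists are higher in all 3, and the astrocyte list overlaps.

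Depth was similar among the mice, with 18797061 to 23938729 counts, and the 9 genes had 295 to 6528 counts each per mouse. All 9 passed the filter on low counts. Overlapping genes limit some of these values, because the strand setting of the counting is not given in the sources used here. The antisense gene Gm45774 overlies Mt2 and shares 45.8% of its stretches of 50 bases (254 of 554), and had 3 to 9 counts per mouse. For Mtf1, Slc30a1 and Slc30a10 the shares with overlapping antisense genes were 7.55%, 8.01% and 8.36%. Mt1, Mt2 and Mt3 shared no stretch of 50 bases with one another, so reads of that length tell the 3 apart.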

How the data were processed

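Per the labels, total RNA from whole brain was made into libraries of polyadenylated RNA with a stranded kit and sequenced as paired reads. The authors deposited 1 table of whole-number read counts per feature for each mouse, without normalization. The submitters' processing notes name cutadapt 2.9, HISAT2 2.2.0, featureCounts 2.6.0 and DESeq2 1.6.3, with the builds GRCm38 and GRCh38. The strand setting, the annotation and the treatment of reads shared by genes are not given in the sources used here. No per-sample column was left out.

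Groups and mouse numbers came from the labels. The quasi-likelihood test of edgeR 4.0.16 (glmQLFit and glmQLFTest, R 4.3.3) compared PLDP with control in a model holding diet alone. It ran on the 18580 features that filterByExpr retained (minimum count 10, minimum total 15) after TMM scaling, and its threshold was an unadjusted p under 0.05. Adjusted p-values are Benjamini-Hochberg values over all 18580 features. CPM are counts scaled to 1000000 by the TMM-adjusted library size. Gene symbols and coordinates came from GENCODE M21 (GRCm38), in which 5577 features had no name and were kept in the fit. Promoters came from RefSeq (GRCm38.p6). Python 3.11.15, pandas 2.3.3 and matplotlib 3.10.9 were used. The fit was tested on simulated data. The alternatives were relative log expression factors, library size only, no filter, at least 10 counts in every mouse, DESeq2 1.42.0, limma voom (limma 3.58.1) and leaving out each mouse.

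The 9 genes and all lists were chosen with earlier results of these data known, so no p adjusted over a list is given. All 9 genes are named. Of the other zinc genes, those with an unadjusted p under 0.05, the 3 most abundant per kilobase and those not tested are named, and of each other pathway list up to 3 with the smallest p under 0.05. Ddit4, Foxj1, Hmox1, Sco2, Selenoh and Gm20427 are named outside this rule, after their values were seen.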

Additional observations from a re-analysis of the deposited data

How the results depend on the processing

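Under the 6 alternatives of 1 choice and the 6 fits that each left out 1 mouse, the log2 fold changes of the 9 genes and the 5 named other zinc genes kept their direction and their side of the threshold in 150 cases, lost the threshold in 14 and changed sign in 4. The 4 changes of sign came from leaving out 1 mouse, with ranges over these fits of -0.037 to 0.0942 for Mt3, -0.0333 to 0.0656 for Slc30a10 and -0.00623 to 0.118 for Slc39a14, none past the threshold. The number of the 9 genes called higher was 3, and 2 without control mouse 2 or PLDP mouse 17 (Slc30a3 was lost). The number called lower was 0 throughout. The 3 other zinc genes called lower became 1 with DESeq2, 2 with relative log expression factors, 2 with at least 10 counts in every mouse and 1 to 2 when a mouse was left out, and the cause was not tested. Slc30a4 passed in 12 of 12 alternatives, Tmem163 in 7 and Slc39a12 in 5. Another scaling moved the median log2 fold change of all features by at most 0.00228. No paired analysis was possible because the groups share no mouse numbers. With 3 mice per group, p-values rest on the spread of 6 animals and on variance that the fit shares across features. The counts cannot separate a change in cell numbers from a change per cell. Depth limits genes with few counts, while each of the 9 genes had at least 295 counts in every mouse.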
